A study of Mus musculus with 8 samples.

Results

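The genes described here encode the subunits of the proteasome and the factors that assemble, activate or inhibit it. They were taken from the 24060 rows of the deposited count table as the symbols that begin with Psma to Psmg followed by a digit, without the inducible subunits Psmb8 and Psmb9. At least 10 counts were required in at least 4 of the 8 libraries. Of the 50 symbols that matched, 2 were removed by name and 1, the thymus-specific subunit gene Psmb11, stayed under the minimum with 0 to 3 counts per library, which left 47 genes. The rule itself uses no difference between the groups, but it was set with earlier results of these data known. One of the 47, Psmc3ip, shares the prefix because its product was found as a partner of the ATPase subunit Psmc3. It is known as a cofactor of meiotic recombination and not as a proteasome component, so it is described apart from the other 46.

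The proteasome is the protease that degrades ubiquitin-tagged proteins in the cytosol and nucleus. Its core particle is a barrel of outer alpha rings, which gate the entry pore, and inner beta rings, which carry the proteolytic sites of Psmb5, Psmb6 and Psmb7. A regulatory particle caps the barrel: its base holds a ring of ATPases that unfold substrates, and its lid removes the ubiquitin chain. Dedicated chaperones build each part, and the genes of the subunits are known to be induced together by the transcription factor Nfe2l1 when proteasome activity falls short.

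Whole cerebellum was sequenced from 4 bigenic mice, which carried CalExflox together with Aldh1l1-Cre/ERT2, and from 4 control mice with CalExflox and no Cre. CalEx is a plasma membrane calcium pump that becomes expressed after Cre recombination, and Aldh1l1-Cre/ERT2 is a tamoxifen-dependent Cre driven by an astrocyte gene. Mice of both groups received tamoxifen once, at 75 mg/kg by intraperitoneal injection of a 25 mg/ml solution in corn oil, and tissue was dissected 5 days later. Age and sex are not given in the sources used here, each library comes from a mouse of its own, and Cre and the pump cannot be told apart because the controls lack both.

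Libraries held 35208460 to 38293012 counted reads, of which the 47 genes took 0.353% to 0.435%. Markers of cerebellar granule neurons summed to between 5265 and 7089 counts per 1000000 scaled counts (CPM) per library and those of Purkinje cells to between 11356 and 14355, against 6.45 to 8.45 for forebrain neurons. Striatal neuron markers summed to 142 to 160.3 CPM in bigenic and 89.6 to 106 CPM in control libraries. Of the 4 striatal genes tested 1 was higher and 1 lower, so the sum does not describe the list as a whole. Choroid plexus markers differed between the groups: 9 of 10 were lower in bigenic tissue, none was at 0 in every library, and their sum was 160.4 to 229 CPM in bigenic libraries against 662, 3822, 4851 and 292 in control libraries 1 to 4. The choroid plexus transcript Ttr was at 300.2, 2360.5, 2961 and 2.76 CPM in the controls and between 2.25 and 4.62 CPM in the bigenic libraries, a range that includes control library 4. Of the other marker lists, 4 of 6 microglial and 3 of 4 tested leukocyte genes were lower; 5 of 9 astrocyte and Bergmann glia genes were higher and 1 lower, and 2 of 6 oligodendrocyte genes were higher. By the same test, described below, 21.4% of all genes were called higher and 22.9% lower. The part of these cell types in the results below was not tested. In bulk tissue, fewer cells of a type and less RNA per cell cannot be told apart.

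Proteasome genes differed little between bigenic and control cerebellum. By edgeR's quasi-likelihood test with an adjusted p under 0.05, 14 of the 47 genes passed, or 29.8%, whereas 44.3% of all 15186 genes tested did. Of these, 9 were higher, against a background of 21.4% of all genes called higher, and 5 were lower, against a background of 22.9%. The values of the 4 bigenic and the 4 control libraries did not overlap for 12 of the 47 genes, compared with 40.7% of all genes. The median size of the log2 fold change, in either direction, was 0.15 for these genes and 0.30 for all genes. Among the genes called higher 1 of 9 exceeded 1.5-fold, and among those called lower 1 of 5, which was Psmc3ip. Without Psmc3ip, 13 of 46 genes passed, or 28.3%, with 9 higher and 4 lower. The groups did not overlap for 11 of these 46.

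The signed median over the 47 genes was 0.072 on the log2 scale, beside -0.004 for all genes tested. Under library size alone both medians moved down together, to -0.014 for the proteasome genes and -0.089 for all genes, with 5 members higher (16.0% of all genes) and 7 lower (28.8%). Without control libraries 2 and 3, which hold the most choroid plexus RNA, 6 members passed, or 12.8%, against 21.9% of all genes. When Ttr, a choroid plexus transcript, entered the fit as a covariate, 5 passed, or 10.6%, against 19.4%. Ttr was far higher in control libraries 1 to 3 than in any bigenic library, so that fit cannot fully separate it from group. Among members that lost the call there, the log2 fold change grew for Psmb3 (0.39 to 0.45) and Psmd10 (-0.40 to -0.49). It stayed about the same for Psmd8 and Psmg2, and shrank for Psma2, Psma6, Psmc1, Psmd6 and Psme2b. Psmf1, Psmd9, Psmg1 and Psmc3ip passed in the same direction under every one of the 20 alternatives.

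**Figure D1:**
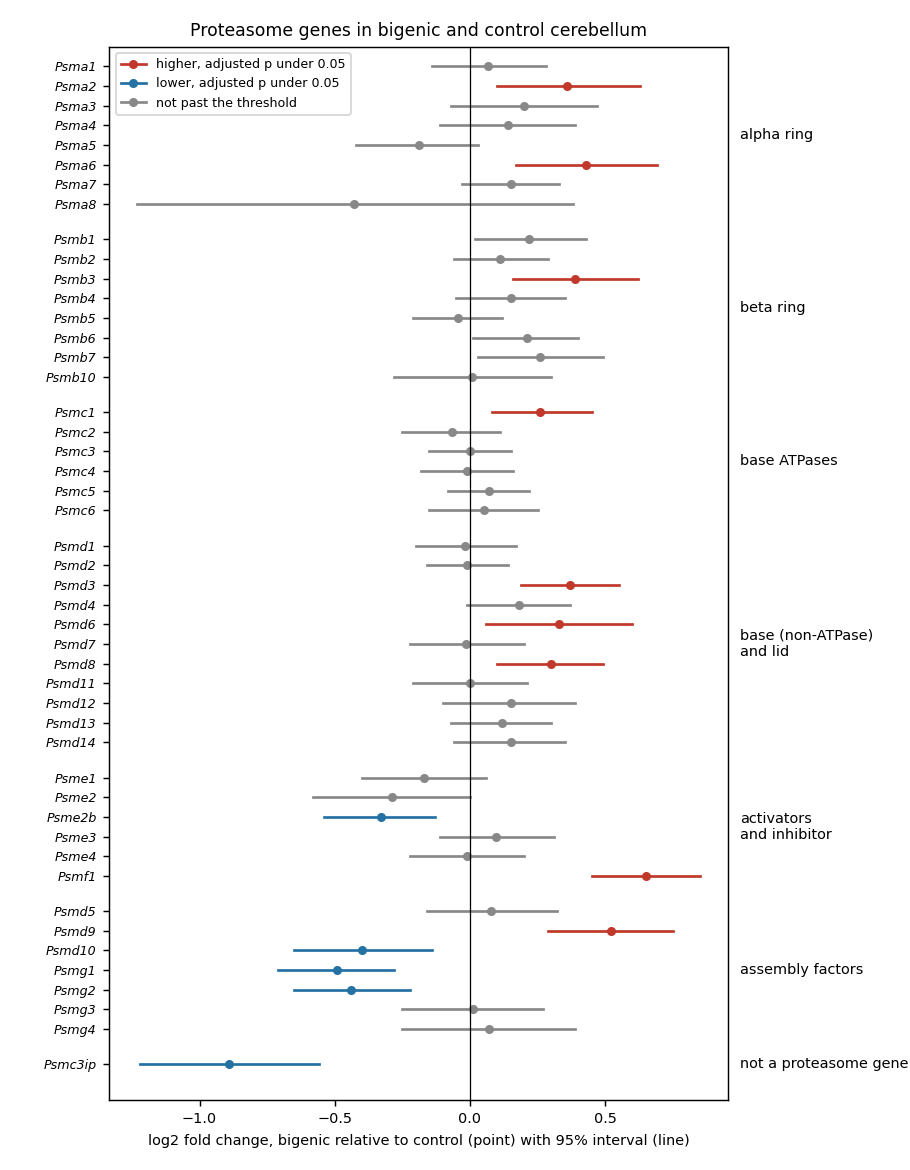
Log2 fold change of each of the 47 genes, bigenic relative to control (points), with its 95% interval (lines), grouped by role; red and blue mark genes past an adjusted p of 0.05. Most points lie between -0.2 and 0.4, and the genes farthest from 0 are the inhibitor Psmf1, the assembly factors Psmd9, Psmg1 and Psmg2, and Psmc3ip.

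The subunit genes of the complex did not have equal counts per length. In the deposited FPKM, which divide counts by gene length, the 14 constitutive core genes had a median of 88.6 over their control means. The span ran from 10.5 ± 0.622 FPKM (SD, n = 4) for the alpha subunit Psma5 and 20.2 ± 1.18 for Psma3 to 158 ± 5.32 for the catalytic subunit Psmb6, a 15.0-fold range. Within it, 11 of the 14 lay within 2-fold of the median. Each of these subunits occupies the same number of places in the core particle. Reads could be lost or split where a gene has copies or overlaps another gene, as Psma5 does. The part of such reads in the span was not tested.

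The 17 regulatory particle genes had a median of 71.6 FPKM in controls, from 14.6 ± 0.781 for the lid subunit Psmd11 to 125 ± 5.60 for the ATPase Psmc5, and 15 of 17 lay within 2-fold of their median. Activators and inhibitor lay lower, at 5.68 to 24.2 FPKM, and assembly factors at 9.29 to 32.2. The inducible catalytic subunit Psmb10 was at 15.1 ± 1.87 FPKM and the testis-type alpha subunit Psma8 at 0.204 ± 0.0641 FPKM (SD, n = 4), the latter from 5 to 17 counts per library.

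**Figure D2:**
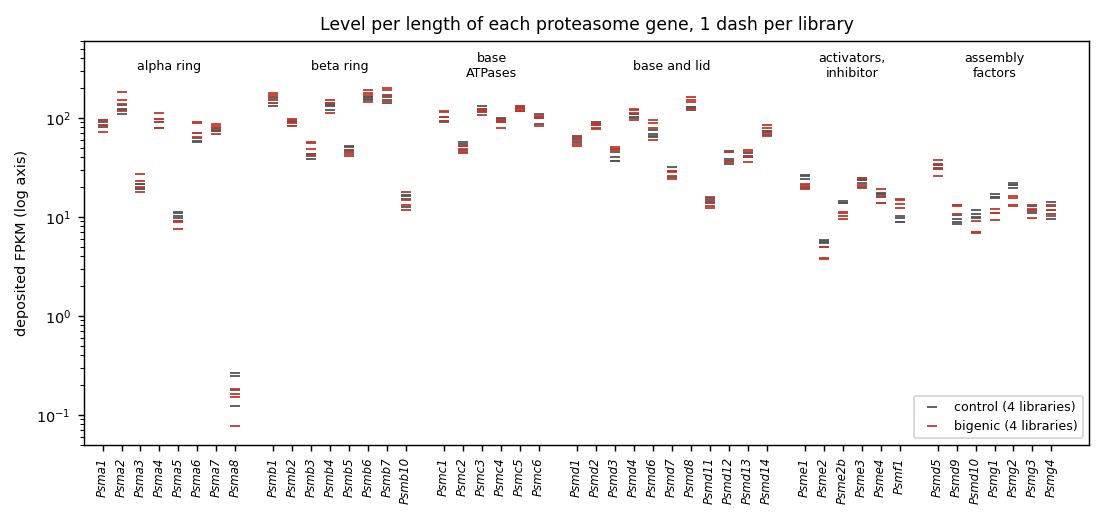
Deposited FPKM (log axis) of 46 proteasome genes in each of the 8 libraries, 1 dash per library, grouped by role. Core and cap subunits lie mostly between 30 and 200 FPKM, with Psma3, Psma5, Psma8, Psmb10, Psmd7 and Psmd11 below, and the groups overlap for most genes.

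In the alpha ring 2 of 8 genes rose (25.0%, beside 44.3% of all genes called). The other 6 did not pass, and the median log2 fold change was 0.146. Values are listed in the order of mice 1 to 4. Psma6 (chromosome 12, 55384222 to 55418454, plus strand) measured 70.6, 66.6, 95.3 and 89.8 CPM in bigenic mice 1 to 4 against 55.5, 56.0, 61.2 and 66.3 CPM in control mice 1 to 4. The groups did not overlap, but bigenic library 2 lay just above control library 4. The difference came to 0.43 ± 0.12 on the log2 scale (SE; adjusted p = 0.012; 0.10 without control libraries 2 and 3 and 0.25 with the Ttr covariate).

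Psma2 (chromosome 13, 14613240 to 14674236, plus strand) measured 133, 115, 181 and 147 CPM in the bigenic and 101, 111, 114 and 122 CPM in the control mice. Bigenic library 3 was the highest and library 2 lay within the control range. The difference was 0.36 ± 0.12 on the log2 scale (SE; adjusted p = 0.031), and it no longer passed with the Ttr covariate (adjusted p = 0.32), with library size alone (adjusted p = 0.081), without control libraries 2 and 3 (adjusted p = 0.15), or without bigenic library 3 or 4 or control library 1, 2 or 3 (adjusted p = 0.061 to 0.079). Psma5, the constitutive core gene with the lowest FPKM, ranged from 9.47 to 11.4 CPM among the bigenic mice and from 11.6 to 13.0 CPM among the controls. Its groups did not overlap, yet it did not pass (log2 fold change -0.19, adjusted p = 0.14) except when library size alone (adjusted p = 0.047) or FPKM set the scale. Psma5 shares exonic sequence with the antisense gene 1700010K24Rik. The remaining constitutive alpha genes, Psma1, Psma3, Psma4 and Psma7, had log2 fold changes of 0.067 to 0.20, and Psma8 had a 95% interval of -1.23 to 0.38.

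In the beta ring 1 of 8 genes rose (12.5%, beside 44.3% of all genes called). The other 7 did not pass, and the median was 0.178. The gene that rose was Psmb3, a structural subunit (chromosome 11, 97703399 to 97713500, plus strand). It measured 36.2, 31.8, 43.6 and 41.7 CPM in the bigenic mice and 27.2, 30.3, 30.9 and 28.6 CPM in the controls. All bigenic values lay above all control values. The log2 fold change was 0.39 ± 0.105 (SE; adjusted p = 0.011). With the Ttr covariate it was 0.45 and did not pass (adjusted p = 0.085). The other structural genes Psmb1, Psmb2 and Psmb4 were at 0.22, 0.11 and 0.15 and did not pass.

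The 3 constitutive catalytic genes did not pass. Psmb5, which encodes the chymotrypsin-like site, measured 42.4, 37.1, 39.0 and 41.7 CPM in the bigenic and 43.1, 40.0, 39.2 and 42.8 CPM in the control mice. The ranges of the groups overlapped, and the 95% interval of its log2 fold change ran from -0.21 to 0.12. Psmb6, the caspase-like site, measured 177, 155, 209 and 189.9 CPM in the bigenic and 152, 156, 164 and 161 CPM in the control mice.

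Psmb7, the trypsin-like site, measured 163, 147, 206 and 191 CPM in the bigenic and 134, 142, 155 and 158 CPM in the control mice. For both genes 3 bigenic libraries lay above the controls and library 2 lay among them. Log2 fold changes were 0.21 ± 0.09 for Psmb6 (adjusted p = 0.076) and 0.26 ± 0.105 for Psmb7 (SE; adjusted p = 0.060). Without bigenic library 2 both passed, at adjusted p = 0.0073 and adjusted p = 0.0094. Psmb5, Psmb6 and Psmb7 have copies named for them in the annotation (1, 2 and 1), so reads of these genes could be split. Copies under other names were not counted for any member. Psmb7 also overlaps Nek6 on the opposite strand.

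Psmb10 replaces Psmb7 in the inducible form of the core particle. It measured 17.1, 15.3, 19.6 and 22.9 CPM in the bigenic and 19.9, 18.8, 15.6 and 20.2 CPM in the control mice, with overlapping groups and a 95% interval of the log2 fold change from -0.28 to 0.30. Its partners in that form, Psmb8 and Psmb9, lie outside the selection and both fell. Psmb8 averaged 2.91 ± 0.0792 CPM over the controls and 1.38 ± 0.212 CPM over the bigenic mice (SD, n = 4), a log2 difference of -1.07 ± 0.17 (SE; adjusted p = 0.00054). Psmb9 averaged 1.01 ± 0.111 and 0.365 ± 0.107 CPM (SD, n = 4), a log2 difference of -1.45 ± 0.27 (SE; adjusted p = 0.0013).

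Neither Psmb8 nor Psmb9 overlapped between groups, and whether their change differs from that of Psmb10 was not tested. Microglial marker sums moved with them, with 132 to 163 CPM in the controls and 91.9 to 118 CPM in the bigenic mice, as did leukocyte sums, with 13.3 to 18.1 and 6.39 to 11.6 CPM; their part in the result was not tested. Psmb9 overlaps Tap1, and Psmb8 overlaps Gm20496, on the opposite strand.

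Of the 6 base ATPases 1 rose (16.7%, beside 44.3% of all genes called), with a median of 0.026. Psmc1 (chromosome 12, 100110154 to 100123405, plus strand) measured 155, 143, 185 and 173 CPM in the bigenic and 131, 134, 138 and 144 CPM in the control mice. Bigenic library 2 lay just below control library 4, and the difference was 0.26 ± 0.085 on the log2 scale (SE; adjusted p = 0.026). It did not pass once Ttr was a covariate (adjusted p = 0.31), with library size alone (adjusted p = 0.10), without control libraries 2 and 3 (adjusted p = 0.17), and without bigenic library 3 or 4 or control library 1, 2 or 3. The other ATPases, Psmc2 to Psmc6, had log2 fold changes of -0.068 to 0.070 and adjusted p of 0.43 or more. Psmc3, the closest to 0 among them, had a 95% interval of -0.15 to 0.15.

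Of the 11 non-ATPase base and lid genes 3 rose (27.3%, beside 44.3% of all genes called), with a median of 0.146 over the 11. Psmd3, a scaffold subunit of the lid (chromosome 11, 98682554 to 98695979, plus strand), measured 105, 113, 108 and 105 CPM in the bigenic and 94.9, 84.5, 77.5 and 75.0 CPM in the control mice. It was the single called core or cap gene in which bigenic library 2 was the highest of the bigenic libraries, and its groups did not overlap. The difference came to 0.37 ± 0.08 on the log2 scale (SE; adjusted p = 0.0038; 0.068 without control libraries 2 and 3). An antisense gene, Gm12356, lies over its exons.

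Psmd8, a lid subunit (chromosome 7, 29174188 to 29180701, minus strand), measured 221, 191, 262 and 231 CPM in the bigenic and 182, 176, 192 and 186 CPM in the control mice. Its groups met at bigenic library 2, and the log2 fold change was 0.30 ± 0.09 (SE; adjusted p = 0.020). It lost the call under 8 of 20 alternatives, among them the Ttr covariate (adjusted p = 0.19), library size alone (0.067), without control libraries 2 and 3 (0.12), without control library 2 (0.065) and without bigenic library 4 (0.056). Psmd6, another lid subunit (chromosome 14, 14112174 to 14120984, minus strand), measured 103, 80.5, 129 and 117 CPM in the bigenic and 80.3, 81.8, 87.0 and 93.2 CPM in the control mice. It passed narrowly (0.33 ± 0.125, SE; adjusted p = 0.049) and lost the call under 15 of 20 alternatives, among them the Ttr covariate (adjusted p = 0.41), and without bigenic library 1, 3 or 4, without control libraries 2 and 3 (0.22) and without any 1 control library.

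The large scaffold subunits of the base, Psmd1 and Psmd2, had log2 fold changes of -0.018 and -0.011. Psmd14, the enzyme that cuts the ubiquitin chain from substrates, and Psmd4, a ubiquitin receptor, were at 0.15 and 0.18, and neither passed (adjusted p = 0.22 and adjusted p = 0.12). Psmd7, Psmd11, Psmd12 and Psmd13 lay between -0.013 and 0.15.

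Among activators and inhibitor 1 of 6 genes rose and 1 fell, or 33.3% called, beside 44.3% of all genes. Psmf1, which encodes a proteasome-binding protein named for its inhibition of the core particle in vitro (chromosome 2, 151715812 to 151744186, minus strand), measured 48.6, 45.0, 55.5 and 54.5 CPM in the bigenic mice. The controls had 35.6, 33.3, 30.7 and 30.1 CPM. Every bigenic value lay above every control value. It rose 1.57-fold (log2 fold change 0.65 ± 0.09, SE; adjusted p = 0.00027), and its value ranged from 0.52 to 0.70 over the 20 alternatives.

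Psme1 and Psme2 encode the ring-shaped activator that interferon induces. Psme1 measured 19.3, 21.3, 21.9 and 19.2 CPM in the bigenic and 19.2, 22.8, 25.5 and 24.3 CPM in the control mice, and did not pass (-0.17, 95% interval -0.40 to 0.06); it overlaps the antisense gene Emc9. Psme2 measured 4.88, 3.87, 3.89 and 4.98 CPM in the bigenic and 5.59, 5.46, 5.27 and 5.23 CPM in the control mice. All its bigenic values were below the controls, without passing (-0.29 ± 0.13, SE; adjusted p = 0.099; adjusted p = 0.046 with library size alone).

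Psme2b, a near-identical copy of Psme2, fell by 0.33 ± 0.09 on the log2 scale (SE; adjusted p = 0.013), from a mean of 14.3 ± 0.599 CPM over the controls to 11.4 ± 0.727 CPM (SD, n = 4). Reads of the 2 near-identical genes could be split between them, and Psme2b also lies within exons of 9930111J21Rik1 on the same strand, so both values are uncertain. For Psme2b adjusted p was 0.13 without control libraries 2 and 3 and 0.21 with the Ttr covariate.

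The nuclear activator Psme3 measured 55.5, 53.0, 67.6 and 65.6 CPM in the bigenic and 51.0, 55.8, 60.9 and 58.1 CPM in the control mice. The large activator Psme4 measured 125, 91.8, 94.5 and 108 CPM in the bigenic and 109, 106, 109 and 98.1 CPM in the control mice. Their groups overlapped, and the 95% intervals were -0.11 to 0.31 and -0.22 to 0.20.

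Of the 7 assembly factors 1 rose and 3 fell, or 57.1% called, beside 44.3% of all genes. With the Ttr covariate 1 rose and 1 fell, and without control libraries 2 and 3 1 rose and 2 fell. Psmg1 and Psmg2 encode the partners of a heterodimer that starts alpha ring assembly. Psmg1 (chromosome 16, 95979933 to 95990960, minus strand) measured 11.0, 11.0, 9.61 and 11.9 CPM in the bigenic and 15.1, 15.2, 15.2 and 15.8 CPM in the control mice. Psmg2 (chromosome 18, 67641599 to 67654162, plus strand) measured 16.6, 14.0, 14.8 and 17.6 CPM in the bigenic and 22.5, 21.4, 20.3 and 21.0 CPM in the control mice.

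Both genes of this pair were lower in all 4 bigenic libraries than in any control. Psmg1 fell by 0.49 ± 0.10 (SE; adjusted p = 0.0018) and Psmg2 fell by 0.44 ± 0.10 (SE; adjusted p = 0.0040) on the log2 scale. Psmg2 did not pass with the Ttr covariate (-0.44, adjusted p = 0.069).

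Psmg3 and Psmg4 encode the second chaperone pair of the alpha ring. Psmg3 measured 10.9, 8.36, 10.4 and 10.2 CPM in the bigenic and 10.6, 8.90, 9.45 and 10.5 CPM in the control mice, and Psmg4 measured 7.42, 5.82, 6.76 and 6.62 against 7.65, 5.74, 5.16 and 6.75 CPM. The ranges of the groups overlapped for both. Their 95% intervals, -0.25 to 0.27 and -0.25 to 0.39, do not include the estimates of Psmg1 and Psmg2; the difference between the pairs was not tested. Psmg3 shares exonic sequence with Gm26938.

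The base chaperones among the members moved in different directions. Psmd9 (chromosome 5, 123169413 to 123250131, plus strand) measured 35.1, 28.3, 36.3 and 34.3 CPM in the bigenic and 26.4, 23.9, 21.5 and 21.7 CPM in the control mice. All bigenic values were above all control values, and it rose by 0.52 ± 0.10 on the log2 scale (SE; adjusted p = 0.0021); its exons overlap the antisense gene Gm26745. Psmd10, known as gankyrin (chromosome X, 140948429 to 140956728, minus strand), measured 10.4, 10.4, 10.8 and 13.5 CPM in the bigenic and 13.6, 14.1, 15.4 and 16.1 CPM in the control mice.

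Psmd10 fell by 0.40 ± 0.115 (SE; adjusted p = 0.016), with bigenic library 4 just under control library 1. It did not pass without control libraries 2 and 3 (-0.40, adjusted p = 0.097) or with the Ttr covariate (-0.49, adjusted p = 0.073). Psmd5, another base chaperone among the members, ranged from 54.4 to 81.5 CPM among the bigenic mice and from 60.6 to 67.0 CPM among the controls. It did not pass (0.077, adjusted p = 0.59).

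**Figure D3:**
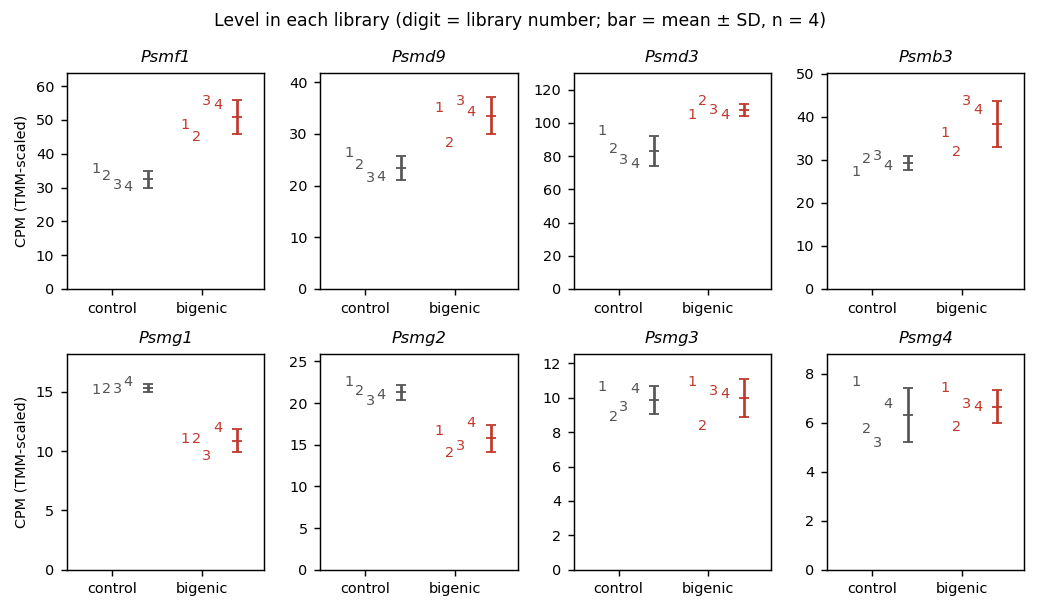
CPM of 8 proteasome genes in each library (digits are library numbers, bars are mean ± SD, n = 4, axes start at 0). Psmf1, Psmd9, Psmd3 and Psmb3 are higher in all 4 bigenic libraries, Psmg1 and Psmg2 are lower in all 4, and Psmg3 and Psmg4 overlap between groups.

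Promoter windows of the members were compared with those of all genes. Members called higher were not compared with members called lower. RefSeq start sites (build GRCm38.p6) gave 42 windows for 39 of the 47 genes, each from 250 bases before to 50 after the start. Psma8, Psmb1, Psmb2, Psmb7, Psmc3, Psmd3, Psmd7 and Psmg2 had no entry. The windows of the members were rich in CpG, with a mean of 19.0 against 12.4 over all 32851 windows of the table. Motifs were searched on both strands, and no 2 different motifs overlapped in the members' windows.

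The ETS core CCGGAAG was present in 16 of 42 member windows, or 38.1%, against 8.86% of all windows. Members with it were called in both directions: Psma6, Psmc1 and Psmd6 were higher and Psmg1 and Psmc3ip lower. The site of nuclear respiratory factor 1 was in 16.7% of member and 4.6% of all windows. This site and the ETS core both contain CpG, and the windows compared were not matched for it. The core of the antioxidant response element, TGACNNNGC, to which Nfe2l1 and Nfe2l2 bind, was in 14.3% and 12.4%, and the CCAAT box in 31.0% and 37.4%.

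The remaining motifs were in few member windows: the interferon-stimulated response element in 11.9% against 3.44% of all windows, the E-box CACGTG in 9.52% against 7.15%, the heat shock pair GAANNTTC in 4.76% against 7.86%, and the glucocorticoid receptor half-sites ACANNNTGT in 2.38% against 6.85%. A match describes letters in this window and is not a shown binding site.

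The windows of 4 members are shown up to the base before the RefSeq start (GRCm38.p6, 5′ to 3′): the inhibitor Psmf1 and the base chaperone Psmd9, which rose, the catalytic subunit Psmb6, which did not pass, and the alpha ring chaperone Psmg1, which fell. Capitals mark the heat shock pair in Psmf1 (chr2:151741311-151741560, minus strand), the antioxidant element core in Psmd9 (chr5:123227940-123228189, plus strand) and Psmb6 (chr11:70525107-70525356, plus strand), and the ETS core in Psmg1 (chr16:95990961-95991210, minus strand). These matches begin 70, 31, 9 and 69 bases before the start. The RefSeq starts of Psmf1 and Psmd9 lie inside the longer GENCODE spans given above. The motifs and the genes shown were chosen after the values were seen.
Psmf1: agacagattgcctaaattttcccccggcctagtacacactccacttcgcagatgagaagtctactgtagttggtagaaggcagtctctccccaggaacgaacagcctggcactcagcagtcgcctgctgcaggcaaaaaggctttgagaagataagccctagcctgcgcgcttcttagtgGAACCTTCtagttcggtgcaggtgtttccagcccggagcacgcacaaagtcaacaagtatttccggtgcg
Psmd9: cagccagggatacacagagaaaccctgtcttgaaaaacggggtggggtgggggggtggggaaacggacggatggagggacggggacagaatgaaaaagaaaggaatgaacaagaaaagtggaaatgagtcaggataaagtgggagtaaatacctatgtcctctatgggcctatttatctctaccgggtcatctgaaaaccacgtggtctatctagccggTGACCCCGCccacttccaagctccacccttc
Psmb6: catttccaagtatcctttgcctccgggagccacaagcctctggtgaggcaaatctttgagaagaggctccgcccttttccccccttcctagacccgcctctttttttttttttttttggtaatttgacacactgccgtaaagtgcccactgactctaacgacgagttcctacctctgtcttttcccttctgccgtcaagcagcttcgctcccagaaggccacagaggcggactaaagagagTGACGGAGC
Psmg1: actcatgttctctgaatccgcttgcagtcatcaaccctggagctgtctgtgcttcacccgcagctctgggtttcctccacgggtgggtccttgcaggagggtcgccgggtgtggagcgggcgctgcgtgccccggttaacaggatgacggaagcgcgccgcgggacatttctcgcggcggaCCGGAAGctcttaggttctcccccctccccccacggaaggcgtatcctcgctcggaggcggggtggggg

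Within the bigenic group the core genes varied together from library to library. The median difference of the 14 constitutive core genes from their control mean, in log2(CPM + 0.5), was 0.14, -0.04, 0.40 and 0.25 in bigenic libraries 1 to 4 and -0.10, -0.02, 0.06 and 0.06 in control libraries 1 to 4. Bigenic library 2 was the lowest of the 4 bigenic libraries for 14 of 14 core genes and library 3 the highest for 12. Summed over the 14 genes, the level was 1376.7, 1211.8, 1648.8 and 1518.0 CPM in bigenic and 1171.5, 1233.2, 1286.0 and 1310.4 CPM in control libraries. Bigenic library 2 thus lay inside the control range and the other 3 above it.

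The regulatory particle followed a flatter course, with medians of 0.01, -0.06, 0.16 and 0.15 in bigenic and -0.08, 0.00, 0.05 and 0.06 in control libraries. Of the 9 members called higher, bigenic library 2 was the lowest bigenic library in 8. Without it 16 members were called higher and 5 lower, or 44.7%, against 48.3% of all genes in that fit. The relative spread was larger in bigenic than in control libraries for 42 of 46 members (Psma8 left out for its low counts), with a median coefficient of variation of 11.2% against 5.91%. Over all genes tested the medians were 12.9% and 8.66%, and 67.8% of genes were more variable in the bigenic group.

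Other abundant complexes moved with the same libraries. Medians of the 75 cytosolic ribosomal protein genes were 0.27, 0.04, 0.37 and 0.35 in bigenic libraries 1 to 4, and those of the 8 cytosolic chaperonin genes were 0.01, -0.19, 0.22 and 0.12. The median over all genes tested stayed between -0.02 and 0.01 in each of the 8 libraries. What sets the order of the bigenic libraries was not tested.

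Between groups, 32 of 75 ribosomal protein genes were higher and 1 lower, with a median of 0.279. That is 44.0% called, beside 44.3% of all genes tested (21.4% higher and 22.9% lower). Of the 9 genes of the COP9 signalosome, a complex related to the proteasome lid, 4 were higher, or 44.4% called, with a median of 0.149. Of the 8 chaperonin genes 0 passed by edgeR, 2 had an unadjusted p under 0.05 and 1 was higher by DESeq2; with library size alone 2 were lower.

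**Figure D4:**
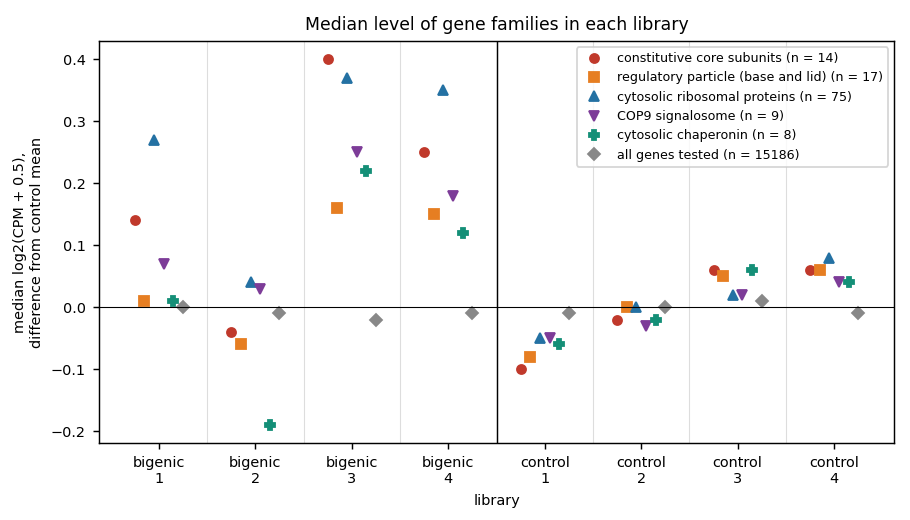
Median difference from the control mean in log2(CPM + 0.5) for 6 gene sets in each of the 8 libraries. The core particle lies highest in bigenic libraries 3 and 4 and near 0 in bigenic library 2, and ribosomal protein genes show a similar order.

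Of 12 genes whose products bind or assemble the proteasome but carry other symbols, 2 rose and 3 fell. That is 41.7% called, beside 44.3% of all genes. Adrm1, a ubiquitin receptor of the base, rose by 0.55 ± 0.11 on the log2 scale (SE; adjusted p = 0.0023), with control and bigenic means of 8.97 ± 0.988 and 13.1 ± 0.946 CPM (SD, n = 4). The stress-induced proteasome-binding gene Zfand2a rose by 0.46. Ube3c, a proteasome-bound ubiquitin ligase, fell by 0.45, with means of 141 ± 5.80 and 103 ± 7.31 CPM (adjusted p = 0.00057), and Zfand2b fell by 0.34. The third gene that fell was Zfand5, named because the count is small, at -0.19 (adjusted p = 0.046). With the Ttr covariate Zfand2a, Zfand2b and Zfand5 did not pass, nor did the latter pair without control libraries 2 and 3. Pomp, the maturation factor of the core particle, and the proteasome-bound deubiquitinases Usp14 and Uchl5 did not pass, at -0.046, -0.22 and 0.22 (adjusted p = 0.72, adjusted p = 0.063 and adjusted p = 0.17).

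Of 14 genes that regulate proteasome gene expression 3 rose and 4 fell. That is 7 of 14 called, beside 44.3% of all genes (21.4% higher and 22.9% lower). With the Ttr covariate, as without control libraries 2 and 3, 2 rose and 2 fell. In those fits 19.4% and 21.9% of all genes were called, respectively. The small Maf genes Maff and Mafk, whose products pair with Nfe2l1 and Nfe2l2 on DNA, rose by 3.14 and 1.91 on the log2 scale. Hsf1, the heat shock factor, fell by 0.58 (adjusted p = 0.00071), and Bach1, a repressor at antioxidant elements, rose by 0.36. The other genes that fell, named because they are few, were Mafg, Nfe2l2 and Nfe2l3, at -0.53, -0.44 and -0.53 (adjusted p = 0.0073, 0.0078 and 0.020). The groups overlapped for Mafg and Nfe2l2. Bach1, Mafg and Nfe2l2 did not pass with the Ttr covariate, nor did Bach1, Nfe2l2 and Nfe2l3 without control libraries 2 and 3. Nfe2l1 itself measured 209, 229, 217 and 222 CPM in the bigenic and 215, 216, 209 and 204 CPM in the control mice, and did not pass (0.056, 95% interval -0.08 to 0.19; chosen after its values were seen).

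Of 21 genes for ubiquitin, its activation, shuttle receptors and the Vcp complex, 9 rose and 4 fell, or 61.9% called. Of all genes 44.3% were called, 21.4% higher and 22.9% lower. Ufd1l, a cofactor of the segregase Vcp, rose by 0.80, and the autophagy receptor Sqstm1 rose by 0.52. Uba6, an enzyme that activates ubiquitin, fell by 1.34 ± 0.11 on the log2 scale (SE; adjusted p = 1.1e-05), with control and bigenic means of 74.2 ± 7.94 and 29.3 ± 3.75 CPM (SD, n = 4), and the shuttle factor Ubqln4 fell by 0.60. With library size alone 4 of these genes were higher and 5 lower, and with the Ttr covariate 2 and 2.

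Psmc3ip, the recombination cofactor that shares the symbol prefix (chromosome 11, 101091823 to 101095436, minus strand), showed the largest difference among the 47. It measured 2.23, 2.06, 1.86 and 2.20 CPM in the bigenic and 3.36, 3.74, 4.19 and 4.13 CPM in the control mice, without overlap. It fell by 0.89 ± 0.15 on the log2 scale (SE; adjusted p = 0.00080). Its exons overlap the antisense gene Mlx, with which it could share reads.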

How the data were processed

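Per the submitters' processing notes, reads were handled with STAR and HTSeq on the mm10 build; versions, annotation and strand setting are not given in the sources used here, so overlapping antisense genes could share reads. The authors deposited read counts per gene symbol, which were used unchanged, and a matching FPKM table. The deposited FPKM equal the counts divided by a fixed gene length and the column total (largest relative deviation 4.95e-09), so they add no depth information. The series design and the sample protocols name different library kits and sequencers.

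Counts were fitted with edgeR 4.0.16 in R 4.3.3: filterByExpr, TMM scaling and the robust quasi-likelihood F test over 15186 genes, adjusted by Benjamini-Hochberg; all 47 genes passed the filter. CPM use TMM-scaled library sizes, standard errors come from the fit and intervals are 95%. On simulated data, with 200 of 15076 genes changed, the fit called 59% of 1.5-fold and 79% of 2-fold changes. Of its calls 4.83% were unchanged genes. In the real data 44.3% of genes were called, so the simulated setting differs from them. The 20 alternatives used other scalings and filters, DESeq2 1.42.0, limma 3.58.1 on log2 of FPKM plus 1 or 0.1, a replicate block, Ttr as a covariate and left-out libraries. Coordinates are from GENCODE M21 (GRCm38, the build called mm10).

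The members and lists were chosen with earlier results of these data known. Named with values were the catalytic, inducible, activator, inhibitor and Psmg genes, up to 3 further called members per role group by smallest p, and up to 4 called genes per other list; other genes are marked where chosen later. The labels give separate mice but no litter, batch or day, and replicate numbers were not taken to pair the samples.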

Additional observations from a re-analysis of the deposited data

Results flagged for a closer look

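In 3 groups of 4 libraries 1 value lay far from the other 3 relative to the group's range, by Dixon's 95% criterion. Among the 94 groups tested, chance alone flags about 5%. Psma5 was at 9.47 CPM in bigenic library 2 and at 11.2 to 11.4 CPM in the other bigenic libraries. Psmd10 was at 13.5 CPM in bigenic library 4 and at 10.4 to 10.8 CPM in the other 3. Psmg1 was at 15.8 CPM in control library 4 and at 15.1 to 15.2 CPM in the other controls.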

How the results depend on the processing

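Across 61 genes and 20 alternatives, 1220 refitted values in all, no called gene reversed its direction; 65 values lost a call and 19 gained one. A further 95, in 15 genes, changed sign while passing in neither fit, and these were counted as unchanged. The median over the 47 genes was 0.072, and it reversed to -0.014 with library size alone and to -0.015 on FPKM with a pseudocount of 1, of 0.1 and without a filter. The median of all genes moved too, from -0.004 to -0.089, -0.06, -0.087 and -0.008 in these fits, so the members stayed above all genes in the first 3 and lay below them without a filter. Psmf1, Psmd9, Psmg1 and Psmc3ip kept their calls under each alternative, whereas Psmd6 kept its call in 5 of 20. Where no cause is named below, the cause was not tested; fewer samples enter the fits that leave libraries out.

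With library size alone, as on FPKM with a pseudocount of 1 or 0.1, 5 members were higher. In each of these fits 1 alpha ring gene was higher and 1 lower, no base ATPase (0) and 1 base or lid gene was higher, 2 activator genes and 3 inducible-form genes were lower, and 2 signalosome genes were higher while 2 chaperonin and 2 ribosomal protein genes were lower. Ubiquitin genes called higher numbered 4 with library size alone and 5 on FPKM, and ribosomal protein genes called higher 19 and 23. On FPKM without a filter, which tests more genes, 3 members were higher, with 0 in the alpha ring, 0 in the beta ring, 0 base ATPases and 1 base or lid gene, and 4 ubiquitin, 1 signalosome and 14 ribosomal protein genes.

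With upper-quartile factors 6 members were higher, with 1 alpha ring gene, 2 base or lid genes and 0 base ATPases, 4 ubiquitin genes higher, and 2 chaperonin and 2 ribosomal protein genes lower. In edgeR without a filter 5 ubiquitin genes and 2 base or lid genes were higher. With DESeq2's size factors 1 chaperonin gene was higher, and 2 proteasome-bound genes were lower. DESeq2's own test called 2 beta ring genes and 1 chaperonin gene higher.

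With the Ttr covariate 2942 of all genes passed, 3 members were higher and 2 lower, 0 alpha ring, 0 beta ring and 0 base ATPase genes were higher, 1 base or lid gene was higher, 0 activator genes and 1 assembly factor were lower. Of proteasome-bound genes 1 was higher and 1 lower, of regulators 2 and 2, of ubiquitin genes 2 and 2, and 0 signalosome and 5 ribosomal protein genes were higher. Without control libraries 2 and 3, 3394 of all genes passed, 3 members were higher and 3 lower, 0 alpha ring, 0 base ATPase and 0 base or lid genes were higher, and 0 activator genes and 2 assembly factors were lower. Of proteasome-bound genes 1 was lower, of regulators 2 were higher and 2 lower, of ubiquitin genes 3 were higher and 3 lower, and 0 signalosome and 10 ribosomal protein genes were higher.

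Replicate numbers 1 to 4 occur in both groups. The correlations of their deviations were 0.329, 0.0239, 0.166 and 0.0625. Bigenic libraries 1, 3 and 4 correlated best with the control library of the same number, and bigenic library 2 with control library 1. The labels give no pairing, so the numbers were not taken to pair the samples in the main fit. With the replicate number as a block 7443 genes passed, 12 members were higher and 5 lower (adding Psmb1, Psmb6 and Psmb7), 4 beta ring genes and 5 regulators were higher, 4 proteasome-bound genes were lower, and 2 chaperonin genes were higher and 1 lower.

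Leaving out each library in turn gave 5281 to 7411 genes called, 5 to 16 members higher, and medians of 0.027 to 0.144 for the members and 0.101 to 0.255 for the core. Genes called higher ranged from 1 to 3 in the alpha ring, 1 to 5 in the beta ring, 0 to 1 among base ATPases and 1 to 5 among base and lid genes, the most without bigenic library 2. They ranged from 3 to 5 for regulators, 2 to 3 for proteasome-bound genes, 4 to 11 for ubiquitin genes, 2 to 4 for the signalosome, 0 to 3 for the chaperonin and 18 to 43 for ribosomal proteins. Genes called lower ranged from 1 to 3 for proteasome-bound genes, 3 to 5 for regulators and 1 to 2 for ribosomal proteins. Depth limits Psma8, with 5 to 17 counts per library, whose 95% interval ran from -1.23 to 0.38 on the log2 scale.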
